A study of Mus musculus with 6 samples.

Results

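The P4-ATPase phospholipid flippases of mouse peritoneal macrophages are described here through the mRNA of Atp8a1, Atp8b4, Atp9a, Atp9b, Atp10a, Atp11a and Atp11b and of their partner subunit Tmem30a. These genes were chosen by family membership around Atp10a, and Atp10a was itself picked from these data because its mRNA differed between the genotypes compared. Of 9 genes listed, 8 were found among 25509 gene rows. Atp10d, which GENCODE annotates as a polymorphic pseudogene on the forward strand at chr5:72203329-72298775, was not analysed here. Poly-A RNA had been sequenced from C57BL/6 mice to compare wild-type (WT) macrophages with macrophages labelled JWT (Tg-ACE), which overexpress angiotensin-converting enzyme (ACE), with 3 libraries per genotype. All 6 libraries came from cells drawn into the peritoneum by the irritant thioglycollate, which were taken on day 4, isolated with a Percoll gradient and cultured for 2 h to retain the adherent ones. The promoter of the transgene and the age of the mice are not given in the sources used here. The labels do not say that the libraries came from separate mice, so the spread between libraries may be partly technical.

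A P4-ATPase uses ATP to move phospholipids from the outer to the inner leaflet of a membrane, which keeps phosphatidylserine and phosphatidylethanolamine on the cytoplasmic side. Most members must bind a small membrane protein, Tmem30a (also called CDC50A), to leave the endoplasmic reticulum and to work, whereas the Atp9 pair does not need it. In macrophages phosphatidylserine that stays exposed on another cell is the signal to engulf it, and the phagocyte's own flippases act on the plasma membrane, on endosomes and on the Golgi. During its cycle the enzyme is phosphorylated on an aspartate within a short motif shared by all P-type ATPases.

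That motif, aspartate-lysine-threonine-glycine-threonine, was found in frame in the coding sequence of all 7 P4-ATPase members measured. Across the genome 44 of 21622 genes with an annotated coding sequence held a match in their longest coding sequence (0.203%). The stretches below, 33 bases each, are shown because they carry the catalytic site and show the codons that each gene uses for it. They run 5′ to 3′ on the coding strand of GENCODE vM21 transcripts (GRCm38), and the capitals mark the 15 bases that encode the motif.
Atp10a: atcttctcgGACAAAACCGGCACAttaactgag
Atp11a: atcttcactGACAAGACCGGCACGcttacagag
Atp11b: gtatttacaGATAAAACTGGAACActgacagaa
Atp8a1: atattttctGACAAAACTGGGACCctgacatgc
Atp8b4: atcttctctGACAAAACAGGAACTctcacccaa
Atp9a: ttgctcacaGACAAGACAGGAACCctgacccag
Between any pair of the 6 genes the marked bases were equal at 10 to 13 of 15 positions. The search required these residues, so the marked bases could differ only at the last base of each codon. The lowest count possible was therefore 10, and the range does not measure divergence. Atp10a shared most with Atp11a, 13 of 15.

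Atp10a (ENSMUSG00000025324.7) lies on the forward strand at chr7:58656166-58829420 of GRCm38. Atp11a lies at chr8:12757014-12868728 and Atp11b at chr3:35754106-35856276, both on the forward strand. On the reverse strand are Atp8a1 at chr5:67618140-67847434, Atp8b4 (ENSMUSG00000060131.11) at chr2:126320973-126500674, Atp9a at chr2:168634438-168742409 and Tmem30a at chr9:79768943-79793507. Each of these is a protein-coding gene, and counts cover its exons. Exons of Atp11a share 199 and 172 bases with the antisense genes Gm15350 and Gm15347. Those of Atp8a1 share 138 bases with Shisa3, which had at most 3 counts in any library, and 66 with Gm15477. The strand settings of the counting are not given in the sources used here, so a small share of these counts could belong to the partner.

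The libraries held between 24294244 and 28120393 expected counts, with 15559 to 15877 genes counted at least once. Values below are counts-per-million (CPM) on TMM-scaled library sizes unless stated. Ace, the transgene, measured 16.7, 7.60 and 11.6 CPM in WT replicates 1 to 3 against 100.6, 25.6 and 31.8 CPM in Tg-ACE replicates 1 to 3, so the genotypes did not overlap. Defining macrophage genes were abundant in every library, with Lyz2 between 14309 and 18018 CPM, Cd68 between 1954 and 2220 and Csf1r between 546.7 and 794.0. Sample descriptions name an experiment, Exp-156 for the first replicate of either genotype and Exp-156b for replicates 2 and 3, without explaining these codes. Xist, which is expressed in females, had 0.41 and 0.53 CPM in the 2 Exp-156 libraries but 327.3 to 454.5 CPM in the 4 Exp-156b libraries, so the sex of the mice cannot be told apart from the code. Both codes hold both genotypes.

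Per kilobase of annotated exon, the means over all libraries were highest for the partner subunit and for Atp8b4, whose level differed between the codes. Tmem30a averaged 16.9 ± 2.13 CPM per kb and Atp8b4 15.4 ± 8.22 (SD, n = 6 libraries). Atp9b, a flippase of the trans-Golgi network, followed at 8.65 ± 0.478 CPM per kb and had the narrowest relative spread of the 8 genes. Atp11a, which moves phosphatidylserine at the plasma membrane, averaged 6.10 ± 0.723 and Atp11b, found on endosomes and the Golgi, 5.90 ± 0.824. Lower levels were measured for Atp8a1, a phosphatidylserine flippase of recycling endosomes, at 2.42 ± 0.362, for Atp10a, which moves phosphatidylcholine and glucosylceramide, at 1.44 ± 0.362, and for Atp9a, an endosomal flippase, at 0.80 ± 0.170 CPM per kb.

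Several neighbours in that order were not separated by their spread. Tmem30a and Atp8b4 changed places between libraries: Atp8b4 was the higher in both Exp-156 libraries (24.1 and 27.3 against 19.2 and 19.5 CPM per kb) and Tmem30a in all 4 Exp-156b libraries. Atp11a and Atp11b overlapped, at 5.19 to 7.09 and 4.62 to 6.76 CPM per kb. Atp9b was above Atp8b4 in WT replicate 3 (8.94 against 8.85 CPM per kb) and in Tg-ACE replicate 2 (9.21 against 8.55) and below it in the other 4 libraries. Atp9b was above both Atp11 genes in all libraries, at 7.85 to 9.21 CPM per kb. With the length of the longest transcript in place of all exons, Atp9b averaged 19.2 and Atp8b4 18.0 CPM per kb, so this pair exchanged places, and the other members kept theirs. Outside the 8, the family gene Atp8b2 averaged 3.54 CPM per kb, above Atp8a1.

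**Figure D1:**
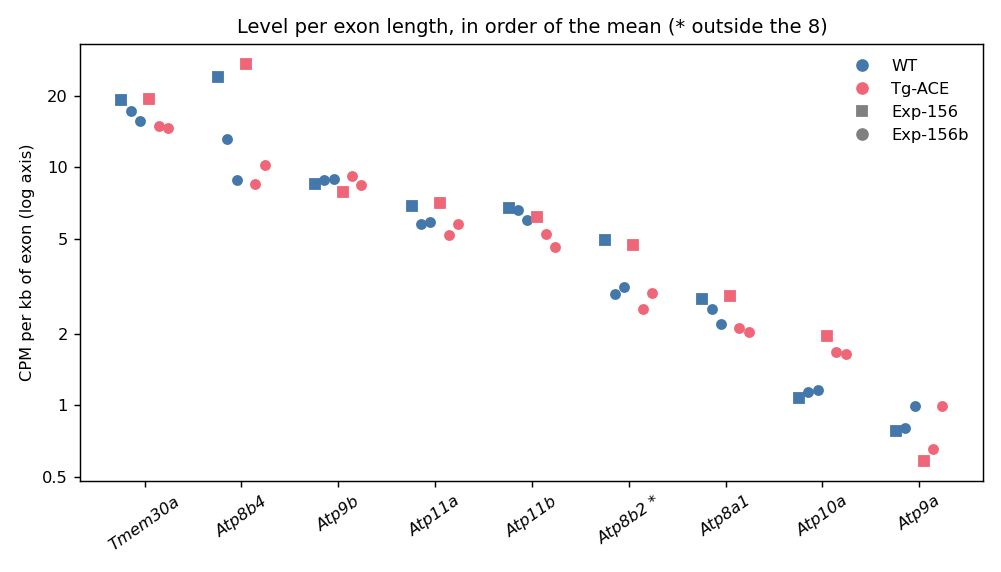
Level of each flippase gene and of Tmem30a in CPM per kilobase of annotated exon (log axis), with 1 point per library, coloured by genotype and shaped by experiment code, in order of the mean. Atp8b4 spreads from 8.55 to 27.3 with both Exp-156 libraries on top, Atp9b stays between 7.85 and 9.21, and the Tg-ACE points of Atp10a lie above all its WT points.

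Every Tg-ACE library held more Atp10a mRNA than any WT library. The WT replicates 1 to 3 stood at 6.01, 6.36 and 6.44 CPM (147, 179 and 162 counts), whereas Tg-ACE replicates 1 to 3 stood at 10.9, 9.36 and 9.13 CPM (309, 235 and 222 counts). The WT values lay close together, and the highest of all was Tg-ACE replicate 1. The group means were 6.27 ± 0.225 and 9.78 ± 0.943 CPM (SD, n = 3), a ratio of 1.56 and a log2 fold change of 0.64. Because Atp10a was picked for this difference, these values describe it and carry no test. Of 12827 genes tested, the genotypes did not overlap for 4.91%, and edgeR's quasi-likelihood test with genotype alone called 0.0% at an adjusted p under 0.05. That is 0 genes, with 126 under an unadjusted p of 0.05, while DESeq2 called 9 and limma-voom 1.

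Within the codes the difference had the same sign, which follows from the groups not overlapping and adds no support. The Atp10a ratio of Tg-ACE to WT was 1.81 in Exp-156, with 1 library each, and 1.45 in Exp-156b, with 2 libraries each. On the log2 CPM scale these differences were 0.84 and 0.53. The order of Ace across the Tg-ACE libraries was the same at the top, with replicate 1 highest for both genes, but replicate 3 was above replicate 2 for Ace and below it for Atp10a. In WT, replicate 1 was the highest for Ace and the lowest for Atp10a. Replicate 1 is the only Exp-156 library of each genotype, so its place cannot be told apart from the code. Fitted over all 6 libraries, markers of some other cells were lower in Tg-ACE without passing the test. The fitted value was below 0 for 6 of 6 B cell and 7 of 7 T and NK cell markers tested. It was also below 0 for 4 of 4 neutrophil and 6 of 6 mast cell and basophil markers. Of the tested mesothelial and fibroblast markers 5 were above 0 and 3 below, and of the dendritic cell markers 1 was above and 2 below. In each of these lists 0 were called. The share of all genes below 0 is not given here, so these counts are descriptions only. Their summed levels overlapped between genotypes, and their part in the Atp10a difference was not tested. The neutrophil sum was 474.9 CPM in WT and 148.4 CPM in Tg-ACE within Exp-156, mostly from Retnlg. Within Exp-156b it was 11.2 and 12.0 CPM in WT and 14.7 and 11.9 CPM in Tg-ACE. The mast cell and basophil sum was 96.2 CPM in WT and 61.9 CPM in Tg-ACE within Exp-156. Within Exp-156b it was 14.1 and 25.4 CPM in WT and 20.1 and 28.8 CPM in Tg-ACE, so its order was not the same in both codes. The T and NK cell sum was 15.8 CPM in WT and 12.5 CPM in Tg-ACE within Exp-156. Within Exp-156b it was 6.92 and 4.29 CPM in WT and 4.14 and 3.54 CPM in Tg-ACE.

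**Figure D2:**
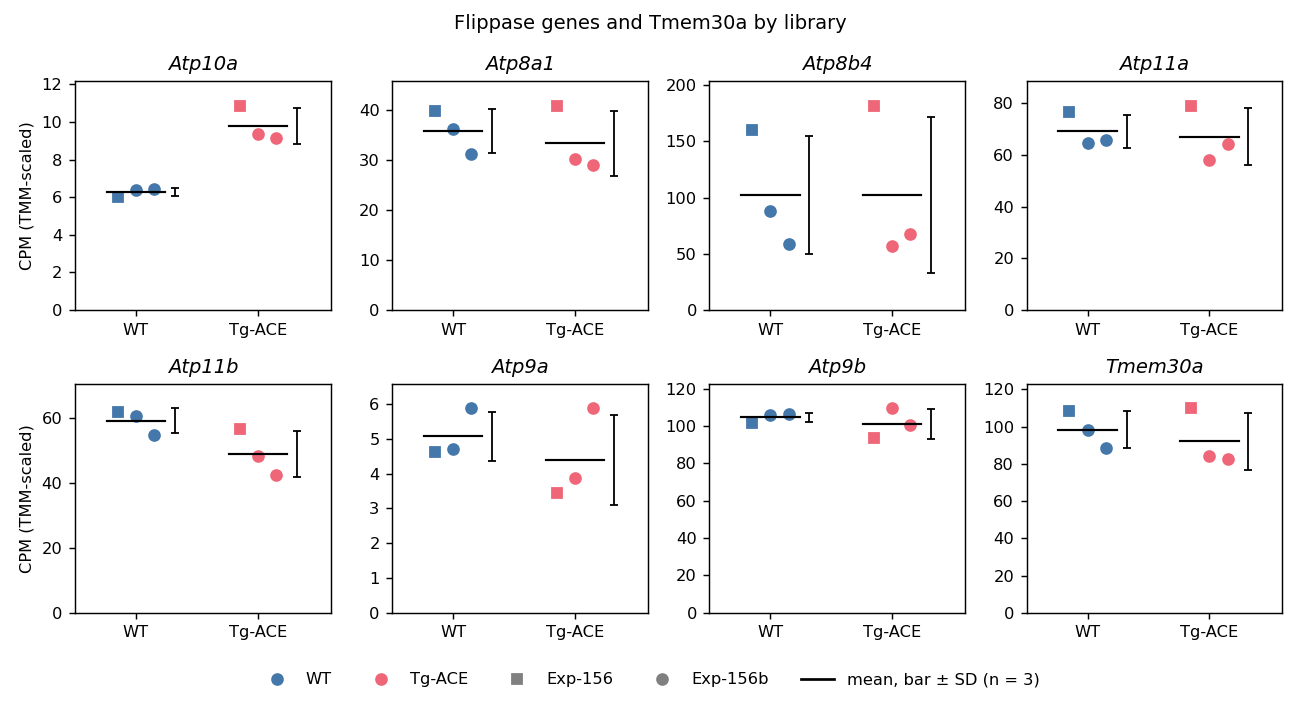
CPM of the 7 flippase genes and Tmem30a in each library by genotype, with squares for Exp-156 and circles for Exp-156b, the group mean as a line and its SD (n = 3) as the bar beside it. The genotypes separate for Atp10a (6.01 to 6.44 against 9.13 to 10.9 CPM) and overlap for the other 7 genes, and Atp8b4 separates by code instead.

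For the other 7 genes the genotypes overlapped, and their log2 fold changes ranged from -0.27 to 0.00. Among flippases of the plasma membrane and recycling endosome, Atp11a stood at 76.5, 64.7 and 65.9 CPM in WT and 79.0, 57.9 and 64.3 CPM in Tg-ACE (log2 fold change -0.04). Atp8a1 stood at 39.9, 36.3 and 31.3 CPM in WT and 40.9, 30.2 and 28.9 CPM in Tg-ACE (-0.10). In both genes replicate 1 was the highest library of its genotype. Leaving out 1 library at a time moved Atp11a from -0.18 (without Tg-ACE replicate 1) to 0.049 (without Tg-ACE replicate 2), with 0.041 without WT replicate 1, and Atp8a1 from -0.28 (without Tg-ACE replicate 1) to -0.010 (without Tg-ACE replicate 3).

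Atp8b4, whose human counterpart is known from leukocytes, stood at 160.2, 87.8 and 58.9 CPM in WT and 181.8, 57.0 and 68.1 CPM in Tg-ACE. Its means were 102.3 ± 52.2 and 102.3 ± 69.1 CPM (SD, n = 3), with a log2 fold change of 0.00. This value depended on 1 library, being -0.71 without Tg-ACE replicate 1 and 0.48 without WT replicate 1. The spread within each genotype was larger than for any other member and went with the code.

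Of the endosomal and Golgi flippases, Atp11b stood at 62.1, 60.8 and 54.9 CPM in WT and 56.5, 48.2 and 42.4 CPM in Tg-ACE. Its log2 fold change was -0.27, running from -0.39 to -0.18 without Tg-ACE replicate 1 or 3, and only the highest Tg-ACE library, at 56.5, stood above the lowest WT library, at 54.9. Atp9a stood at 4.62, 4.72 and 5.88 CPM in WT and 3.45, 3.86 and 5.88 CPM in Tg-ACE (-0.21), with replicate 3 the highest in both genotypes. Leaving out Tg-ACE replicate 1 gave -0.060, and leaving out Tg-ACE replicate 3 gave -0.47. Atp9b stood at 101.7, 105.9 and 106.3 CPM in WT and 93.4, 109.5 and 100.4 CPM in Tg-ACE (-0.05), and its value ran from -0.12 without Tg-ACE replicate 2 to 0.0040 without Tg-ACE replicate 1.

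Tmem30a stood at 108.3, 98.0 and 88.4 CPM in WT and 109.8, 84.2 and 82.5 CPM in Tg-ACE, a log2 fold change of -0.09. It was -0.24 without Tg-ACE replicate 1 and -0.014 without WT replicate 1. Replicate 1 was again the highest library of each genotype. The median log2 fold change of the 8 genes was -0.07, beside -0.006 for all genes tested. Between the codes, the genotype difference kept its sign for 4 of 8 genes, Atp9a, Atp9b, Atp10a and Atp11b. The share of all genes that did so is not given here, so this count is a description only. For Atp10a the sign follows from its groups not overlapping, and for Atp9b the values were -0.12 in Exp-156 and -0.02 in Exp-156b. In the interaction of genotype and code, fitted over all genes in edgeR, 0 members passed (all 8 had an unadjusted p of at least 0.221), and the smallest adjusted p of any gene was 0.678.

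The experiment codes were compared next, a contrast on which the genes were not chosen. With genotype in the fit, 4 of 8 genes were lower in Exp-156b than in Exp-156, 0 were higher and 4 did not pass. The background was high. Of 13256 genes tested, 43.2% passed in either direction, 23.4% lower and 19.8% higher in Exp-156b, so the share of members that passed in either direction was near that of all genes. The median log2 fold change was -0.25 over the 8 genes and -0.006 over all genes.

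Atp8b4 carried the widest difference. Its level was 171.0 ± 15.2 CPM in Exp-156 (SD, n = 2) and 67.9 ± 14.1 CPM in Exp-156b (SD, n = 4), a ratio of 2.52. The fitted log2 fold change was -1.33 (SE 0.16, adjusted p = 0.000591 in edgeR), and WT replicate 2, at 87.8 CPM, was the Exp-156b library nearest to Exp-156. The value stayed between -1.54 and -1.12 in every alternative tried, with an adjusted p of at most 0.0178.

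The 3 other members that fell did so by much less. Atp8a1 averaged 40.4 ± 0.732 CPM in Exp-156 (SD, n = 2) and 31.7 ± 3.23 in Exp-156b (SD, n = 4), a log2 fold change of -0.35 (SE 0.09, edgeR adjusted p = 0.0161). Tmem30a averaged 109.1 ± 1.09 against 88.3 ± 6.93 CPM, a log2 fold change of -0.30 (SE 0.08, adjusted p = 0.0140). Atp11a averaged 77.7 ± 1.79 against 63.2 ± 3.61 CPM, a log2 fold change of -0.29 (SE 0.07, adjusted p = 0.0140). In all 4 genes both Exp-156 libraries stood above every Exp-156b library. The share of all genes that separate by code in this way is not given here, so this is a description and adds no support. These 3 smaller calls ended without Tg-ACE replicate 1, at -0.23 for Atp8a1 (adjusted p = 0.178), -0.21 for Tmem30a (0.146) and -0.22 for Atp11a (0.132), where WT replicate 1 alone stood for Exp-156.

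The other members did not pass. Atp11b had a log2 fold change of -0.21 (SE 0.09, adjusted p = 0.0986 in edgeR) and Atp10a of -0.08 (SE 0.13, adjusted p = 0.660). Above 0 were the Atp9 pair, which work without Tmem30a, with 0.12 for Atp9b (SE 0.07, adjusted p = 0.197) and 0.35 for Atp9a (SE 0.22, adjusted p = 0.238). Atp9a rests on 97 to 148 counts per library, and its SE is the largest of the members. Without Tg-ACE replicate 1 the value of Atp10a was 0.094, and those of Atp11b, Atp9b and Atp9a were -0.096, 0.066 and 0.20. Without WT replicate 1 the values of Atp10a, Atp11b, Atp9b and Atp9a were -0.23, -0.32, 0.17 and 0.50.

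**Figure D3:**
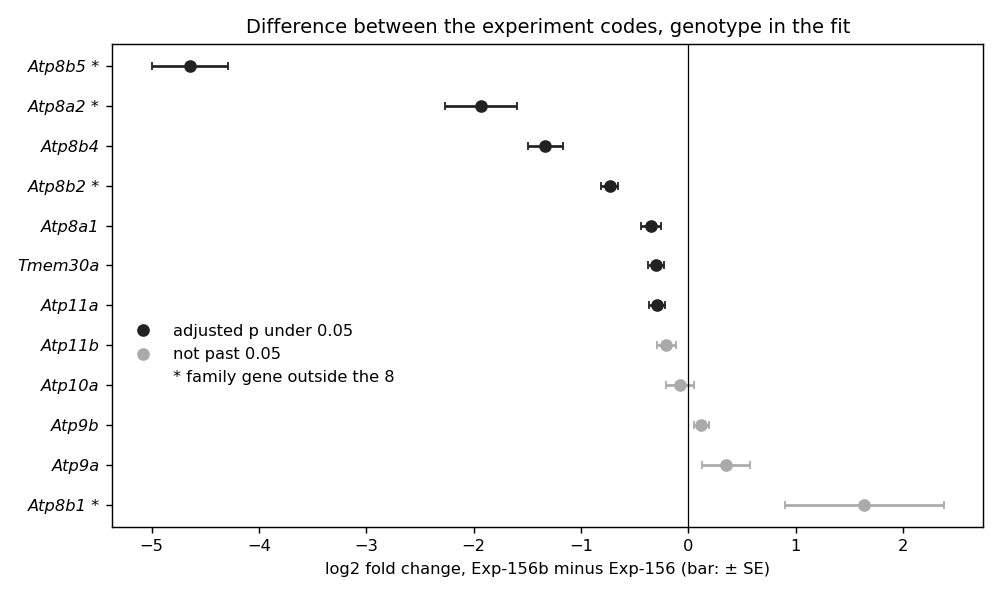
Fitted log2 fold change between the experiment codes (Exp-156b minus Exp-156, genotype in the fit) for the members and 4 other family genes, with bars of 1 SE, dark points for an adjusted p under 0.05 and asterisks for family genes outside the 8. Atp8b4 lies at -1.33 and Atp8a1, Tmem30a and Atp11a between -0.35 and -0.29, while the Atp9 pair lies right of 0. Atp8b5, at -4.64, passed the filter through Exp-156 alone, so its dark point is not read as a test result.

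Among family genes outside the 8, Atp8b2, a flippase of phosphatidylcholine at the plasma membrane, had 42.4 and 40.3 CPM in Exp-156 but only 21.8 to 26.9 in Exp-156b (log2 fold change -0.73, SE 0.08, edgeR adjusted p = 0.000409).

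Several others were scarce. Atp8a2 had 56 and 26 counts in Exp-156 and 5 to 16 in Exp-156b (log2 fold change -1.93, SE 0.33, adjusted p = 0.00293 in edgeR). Atp8b5 had 86 and 55 counts in Exp-156 and 1 to 5 in Exp-156b, a level at which it passed the filter through Exp-156 alone. Atp8b1 had 1 and 7 counts in Exp-156 and 5 to 16 in Exp-156b and did not pass (adjusted p = 0.109). Atp8b3, Atp10b and the Tmem30a relative Tmem30c had at most 1 count in any library and Tmem30b had 0 in all 6, below the 3 counts (0.107 to 0.123 CPM) treated as detected, so Tmem30a was the only partner subunit detected at this depth.

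Markers of other cells also moved with the code, and their part in these differences was not tested. Summed over 7 neutrophil markers the level was 148.4 to 474.9 CPM in Exp-156 and 11.2 to 14.7 in Exp-156b, mostly from Retnlg (438.4 and 128.5 CPM in Exp-156), while Ly6g, Mpo and Elane were at or below 1.43 CPM in all libraries. Summed over 5 eosinophil markers it was 88.4 to 223.2 against 8.66 to 18.4 CPM, from Ccr3 and Siglecf, with Epx at or below 0.14. For 6 dendritic cell markers the sums were 33.4 to 38.5 against 5.14 to 9.78 CPM. For 7 mast cell and basophil markers they were 61.9 to 96.2 against 14.1 to 28.8, and for 8 T and NK cell markers 12.5 to 15.8 against 3.54 to 6.92 CPM. The 7 erythroid and platelet markers summed to 5.94 to 7.57 and 2.75 to 3.90 CPM, but did not move one way. In Exp-156 most of the sum came from Itga2b (6.42 and 3.87 CPM), which was lower in every Exp-156b library. Gp1ba had the opposite order, with 0.78 and 0.28 CPM in Exp-156 and more in every Exp-156b library. Of the 2 markers in this list that were tested, 1 was lower and 1 higher in Exp-156b. The 6 B cell markers overlapped, at 96.3 to 122.9 and 56.9 to 129.4 CPM.

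The 8 mesothelial and fibroblast markers summed to 149.8 to 161.0 CPM in Exp-156 and 194.8 to 389.3 in Exp-156b, the opposite order, mostly from Col1a1 and Pdgfra. Of these 8 markers 4 were higher in Exp-156b, 1 was lower and 3 did not pass. Over all genes tested, 19.8% were higher and 23.4% lower in Exp-156b. Macrophage genes differed too. Their sums overlapped, at 21736 to 21835 CPM in Exp-156 and 18144 to 22083 in Exp-156b, but 6 of the 9 rows tested were lower in Exp-156b and 0 higher. Among them, Adgre1, which encodes the F4/80 antigen, had 631.7 and 645.7 CPM in Exp-156 against 213.6 to 351.0 in Exp-156b. In such bulk RNA, fewer cells of a type and less of the mRNA per cell cannot be told apart.

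The make-up of flippase mRNA followed the code. Of the CPM per kb summed over all P4-ATPase genes, Atp8b4 took 40.0% and 43.3% in Exp-156 and 29.0%, 21.8%, 22.5% and 25.9% in Exp-156b, a mean of 41.6% (n = 2) against 24.8% ± 3.32 (SD, n = 4). The share of Atp9b had the opposite order, 14.2% and 12.5% in Exp-156 and 19.6% to 24.3% in Exp-156b, although its own level overlapped between codes. Atp10a took 1.79%, 2.50% and 2.84% in WT replicates 1 to 3 and 3.09%, 4.42% and 4.15% in Tg-ACE replicates 1 to 3. Its share therefore separated the genotypes as its CPM did, and within each genotype was lowest in replicate 1, where Atp8b4 was highest.

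**Figure D4:**
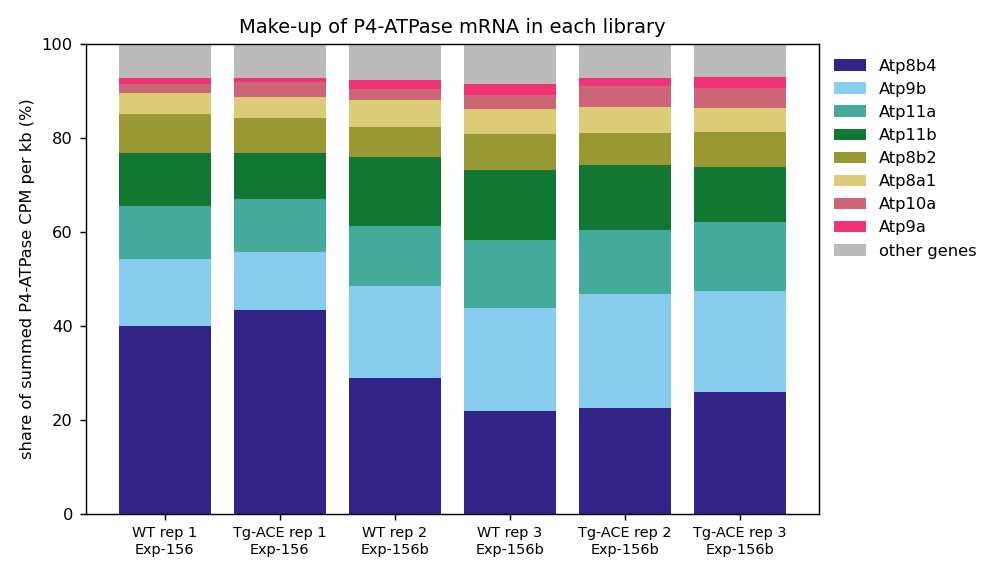
Share of each P4-ATPase gene in the CPM per kb summed over the family, with 1 bar per library ordered by experiment code and the remaining family genes drawn as 1 segment. Atp8b4 takes 40.0% and 43.3% in the Exp-156 libraries and at most 29.0% in the others, and Atp9b takes more in Exp-156b.

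Tmem30a was set against the flippases that need it, leaving out the Atp9 pair. Its CPM per kb was 0.377, 0.485 and 0.511 of their sum in WT replicates 1 to 3 and 0.356, 0.531 and 0.488 in Tg-ACE replicates 1 to 3. The ratio was lowest in both Exp-156 libraries. With Atp8b4 left out of the sum as well, it was 0.715 and 0.713 in Exp-156 and 0.718 to 0.769 in Exp-156b, still lowest in the Exp-156 libraries but by less. Most of the difference in this ratio between the codes thus came from the Atp8b4 term of the sum.

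Genes that act around the flippases were taken from 5 lists and compared between the codes. Each count below is to be read beside all genes tested, of which 23.4% were lower and 19.8% higher in Exp-156b. Among 13 tested genes for proteins that act on or beside flippases, 6 were lower and 2 higher in Exp-156b (median log2 fold change -0.19). Ehd1, a membrane-remodelling ATPase of recycling endosomes, was lower (-1.48, edgeR adjusted p = 0.000125), as was Casp8, an initiator caspase of apoptosis (-0.59, adjusted p = 0.000501). Arl1, a Golgi GTPase, was higher (0.38, adjusted p = 0.00431).

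Scramblases, which let phospholipids pass both ways and so undo the work of flippases, were lower for 3 and higher for 6 of 20 tested genes (median 0.02). Vmp1 and Tmem41b, scramblases of the endoplasmic reticulum, were higher (0.39 and 0.31), as was the scarce Plscr2 (1.67), and Atg2a, an autophagy lipid-transfer protein, was lower (-0.45). ABC transporters, which carry lipids outwards, had 3 lower and 1 higher of 9 (median -0.07). Abca7 (-0.75), the cholesterol exporter Abca1 (-0.51) and Abca3 (-0.22) were lower and Abcc1 (0.43) was higher.

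Enzymes and carriers of phosphatidylserine and glucosylceramide had 3 lower and 3 higher of 12 tested (median 0.13). Among them Ugcg, which makes glucosylceramide, a lipid that Atp10a moves, was lower in Exp-156b (-0.32, adjusted p = 0.0125 in edgeR). Of the phosphatidylserine carriers Osbpl11 was lower (-0.51) and Osbpl10 higher (2.07, from 5 to 37 counts). The P5-type ATPases, relatives that share the catalytic motif, had 0 of 4 called, the smallest adjusted p being 0.0703 for Atp13a2 (-0.19). In the genotype fit, which leaves out the code and in which Ace did not pass either, 0 genes of any of these lists passed.

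Over the 6 libraries the genes with a pattern most like that of Atp10a, by the Pearson r of log2 CPM among 9729 genes with at least 5 CPM, were Crtap (0.969), Agpat3 (0.952), Man2a2 (0.944), Ogfr (0.940) and Ghdc (0.939). Likeness to a gene that separates the genotypes ranks such genes first, so this is a description of 6 libraries with shared depth and codes. For all 5 the Tg-ACE libraries stood above the WT libraries without overlap, but by less than for Atp10a: Man2a2, a Golgi mannosidase, had a log2 fold change of 0.47, Agpat3, an acyltransferase of phospholipid synthesis, 0.24, and Crtap 0.11. Ube3a, which lies within 1 Mb of Atp10a, stood at 46.4, 38.6 and 37.2 CPM in WT and 48.3, 32.4 and 33.3 CPM in Tg-ACE, overlapping between genotypes.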

How the data were processed

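The authors deposited 1 table of expected counts per gene for 6 libraries, made from stranded poly-A libraries read as single 75 bp reads per the labels' protocols. The submitters' processing notes list STAR 2.5.0, RSEM 1.2.25, mm10 and GRCh38, without their roles. Strand settings are not given in the sources used here. Values that were not whole, 11.0% to 11.4% per library, were rounded. The table held 0 columns of other samples. Its 92 spike-in rows (1 count in all) were left out. Symbols stood on more than 1 row for 69 rows, which were kept apart by identifier. Positions came from GENCODE vM21, which held 25251 of the identifiers. The smallest mean chi-square per gene over pairs of libraries was 12.8, so none was a copy.

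Genes were tested over the whole table with edgeR 4.0.16 (R 4.3.3) by the quasi-likelihood test, with TMM, filterByExpr and Benjamini-Hochberg adjustment at 0.05. Genotype was fitted alone, and the experiment code was fitted with genotype. The SE is the size of the log2 fold change over the square root of F, log2 CPM uses a prior count of 2, and the limit of 3 counts covers counting error only. The models were tested on simulated data. The alternatives were other size factors, filters, DESeq2 1.42.0, limma-voom (limma 3.58.1), each library left out, the code as a term, a replicate block and transcript length. The interaction of genotype and code was added after the data were seen.

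Same-numbered WT and Tg-ACE libraries deviated together from their group means (r over genes 0.856, 0.483 and 0.637), but so did the crossed replicates 2 and 3 (0.539 and 0.615). With the code removed, all 4 correlations were between -0.178 and -0.0939, so the likeness goes with the codes. The titles and design text name the second group differently (Tg-ACE and Tg-NKO), and the titles were followed. The members, lists and rules were chosen with earlier results of these data known. The named genes are the members, all other P4-ATPase and Tmem30 genes, Ace, up to 4 genes with the smallest p in the code comparison per list, the 5 genes most like Atp10a and those within 1 Mb of it. Some genes that this rule takes are not reported here.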

Additional observations from a re-analysis of the deposited data

How the results depend on the processing

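The 8 members gave 0 genotype calls in every alternative tried, and the log2 fold change of Atp10a stayed between 0.53 (Exp-156b alone) and 0.69 (without Tg-ACE replicate 3). Over all genes the genotype calls were 0 at first, 1 with no filter beyond 1 count, 9 in DESeq2, 1 in limma-voom, 2 with the code as a term and 2 in Exp-156b alone. Leaving out 1 library at a time gave 0 to 1. With the replicate block 2 genes were called, none a member, and no member's call changed. Between the codes, leaving out 1 library at a time gave 1 to 4 member calls and 3553 to 5260 calls over all genes, from 5732, namely 3553 when WT replicate 1 and 3580 when Tg-ACE replicate 1 was left out, which leave Exp-156 with 1 library assumed to vary like the rest. Over the same left-out libraries the Atp10a value between codes ran from -0.23 (without WT replicate 1) to 0.094 (without Tg-ACE replicate 1), from -0.08. A replicate block could not be fitted there, since the code is nested in the replicate number. By longest transcript the levels were 4.23 (Atp8a1), 1.27 (Atp9a), 19.2 (Atp9b), 9.01 (Atp11a), 8.57 (Atp11b) and 26.0 CPM per kb (Tmem30a), because the lengths are shorter. Depth limits Atp9a, Atp10a and the scarce family genes most.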
